A study of Mus musculus with 61 samples.

Results

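The enzymes that make and use glutathione, together with the peroxiredoxins, thioredoxins, superoxide dismutases, catalase and Nqo1, were followed over 5 brain regions of 6 inbred mouse strains. The families were chosen with earlier results of these data known, and within them the members were taken by gene symbol alone: every probe set of the array that was annotated to exactly 1 gene of the glutathione transferase (Gsta, Gstm, Gstp, Gstt, Gsto, Gstk, Mgst1, Mgst3), glutathione peroxidase (Gpx), peroxiredoxin (Prdx), thioredoxin reductase (Txnrd) or superoxide dismutase (Sod) families, or to Gsr, Gss, Gclc, Gclm, Cat, Nqo1, Srxn1, Txn1 or Txn2. This gave 87 of 45037 probe sets, for 47 of the 18193 genes that the array names in this way. They comprised 21 transferases with 30 probe sets, 8 glutathione peroxidases with 9, 4 genes of glutathione synthesis and reduction with 8, 4 peroxiredoxin and sulfiredoxin genes with 11, 5 thioredoxins and thioredoxin reductases with 15, 4 superoxide dismutases and catalase with 13, and the quinone reductase Nqo1 with 1. A further 6 probe sets, 5 for Prdx1 and 1 for Gsta1 and Gsta2, also named another gene and were left out, so Prdx1 was not analysed here. Prdx5 and Prdx6 were not among the members either, so the peroxiredoxins covered were Prdx2, Prdx3 and Prdx4.

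The RNA came from male mice, 8 weeks old, of the inbred strains C57BL/6J, FVB/NJ, A/J, DBA/2J, 129S6/SvEvTac and C3H/HeJ. The regions were the pituitary gland, the hypothalamus, the hippocampus, the periaqueductal gray (pag), and the bed nucleus of the stria terminalis (bnst), a part of the forebrain. The descriptions name no engineered allele and no treatment, so the comparisons are among inbred strains and among regions. An array carried RNA of 1 mouse for the hippocampus, 1 or 2 for the hypothalamus and pag, 2 or 3 pooled for the bnst and 5 pooled for the pituitary gland, so the spread between arrays leaves out part of the spread between mice. Replicates came from separate mice or separate pools, by the study's methods. There were 2 arrays for each of 29 groups of strain and region and 3 for C3H/HeJ bnst, 61 in all, or 12 or 13 arrays a region and 10 or 11 a strain.

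Glutathione is a tripeptide that cells build in a pair of steps, of which the ligation of glutamate to cysteine by the enzyme of Gclc and Gclm limits the rate, and that serves as the electron donor of the glutathione peroxidases and as the partner that transferases join to lipophilic and electrophilic compounds. Peroxiredoxins and thioredoxins form a parallel chain that also removes peroxides, with electrons passed from NADPH by the thioredoxin reductases. Superoxide dismutases turn superoxide into hydrogen peroxide, which catalase and the peroxidases remove. In the brain, astrocytes are known to hold much glutathione and to supply its precursors to neurons, and many genes of these families are targets of the transcription factor Nrf2 (Nfe2l2), which binds the antioxidant response element.

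The promoters of 6 members on which the results below turn are shown, as the 250 bases before the start of the transcript, 5′ to 3′ on the strand of the gene, from RefSeq (GRCm38.p6). The Gstm genes are shown because neighbours of this cluster differed in opposite directions between regions, Gpx3 because it differed most between regions, and Mgst1 because its interaction of strain and region had the lowest adjusted p. Capitals mark the core of the antioxidant response element, TGACNNNGC, searched on both strands. The Gstm7 window lies wholly within the annotated span of its gene (107926334 to 107931877), and the Gstm6 window partly (107938847 to 107953641). These stretches are thus not all upstream of the gene.
Gstm5 (chr3:107895604-107895853, plus strand): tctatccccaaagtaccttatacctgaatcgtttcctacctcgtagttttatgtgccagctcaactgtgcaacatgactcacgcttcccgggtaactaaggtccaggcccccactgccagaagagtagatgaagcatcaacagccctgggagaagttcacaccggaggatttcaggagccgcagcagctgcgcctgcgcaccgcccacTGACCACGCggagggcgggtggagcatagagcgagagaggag
Gstm7, the second start listed (chr3:107931615-107931864, minus strand): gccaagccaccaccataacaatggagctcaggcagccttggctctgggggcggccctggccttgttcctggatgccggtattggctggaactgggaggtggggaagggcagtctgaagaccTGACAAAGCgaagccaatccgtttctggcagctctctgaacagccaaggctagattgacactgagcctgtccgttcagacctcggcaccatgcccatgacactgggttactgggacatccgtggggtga
Gstm6, the first start listed (chr3:107953467-107953716, minus strand): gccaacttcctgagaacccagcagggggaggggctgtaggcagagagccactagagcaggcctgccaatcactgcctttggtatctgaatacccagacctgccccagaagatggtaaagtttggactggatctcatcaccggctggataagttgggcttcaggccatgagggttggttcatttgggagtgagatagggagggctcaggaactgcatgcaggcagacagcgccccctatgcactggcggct
Gstm2 (chr3:107986421-107986670, minus strand): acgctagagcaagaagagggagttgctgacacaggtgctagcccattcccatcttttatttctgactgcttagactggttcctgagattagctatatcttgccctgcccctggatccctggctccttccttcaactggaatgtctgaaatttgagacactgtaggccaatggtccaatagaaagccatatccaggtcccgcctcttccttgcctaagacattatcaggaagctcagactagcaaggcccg
Gpx3 (chr11:54902604-54902853, plus strand): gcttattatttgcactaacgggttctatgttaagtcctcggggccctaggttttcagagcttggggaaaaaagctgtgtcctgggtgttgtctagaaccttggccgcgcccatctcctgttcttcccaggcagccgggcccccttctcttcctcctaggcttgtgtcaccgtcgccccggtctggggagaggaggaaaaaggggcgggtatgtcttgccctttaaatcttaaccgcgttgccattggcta
Mgst1, the first start listed (chr6:138140277-138140526, plus strand): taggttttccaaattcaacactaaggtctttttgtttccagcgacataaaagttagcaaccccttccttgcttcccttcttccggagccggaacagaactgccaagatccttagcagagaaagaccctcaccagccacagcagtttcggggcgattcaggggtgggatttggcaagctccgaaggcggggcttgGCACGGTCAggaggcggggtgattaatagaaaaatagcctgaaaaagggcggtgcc

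Of the 47 genes, 42 had a promoter in the RefSeq table, with 55 starts among them. The core was found in 7 of these 55 windows (12.7%), against 3338 of 32851 windows of the same length over the table (10.2%), and by gene in 7 of 42 (16.7%) against 3112 of 27025 (11.5%). The 7 genes were Gclm, Gsta3, Gstm5, Gstm7, Mgst1, Sod1 and Txnrd1, and the match lay between 42 bases (Gstm5) and 134 bases (Gclm) before the start. A match to these letters is a description of the window and no evidence of binding, and its absence from the other windows says only that these letters are not there.

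Signals are the deposited linear intensities, corrected for background and scaled by the authors, whose means per array lay between 180.5 and 200.5 and whose medians lay between 42.6 and 67.1. Replicate arrays of a group correlated at an r of 0.937 to 0.988 on the log2 scale. Differences were tested with limma on log2 signals, after values under 12.8 had been raised to that floor, with p values adjusted over 44065 probe sets by the method of Benjamini and Hochberg, and a difference was called at an adjusted p under 0.05. Each gene is given by its leading probe set, the one with the highest mean signal over all arrays. All 87 member probe sets were tested. Of the 47 leading probe sets, 36 were above the floor on all arrays and 11 had a mean under 50, among them Gpx2, Gpx5, Gpx6, Gsta2, Gsta3, Gsto2, Gstp3 and Gstt4, for which a real difference could go unseen. In bulk tissue, fewer cells of a type and less RNA per cell cannot be told apart, which holds for every difference described here. Hormone-cell markers of the pituitary gland were summed on each brain array and oligodendrocyte markers on each pituitary array. In 5 arrays the sum was over 3000 and at least 2 times that of the replicate. For hormone-cell markers these were C57BL/6J hippocampus replicate 2 (3083 against 166), C57BL/6J hypothalamus replicate 1 (7880 against 614), FVB/NJ bnst replicate 1 (4357 against 1524) and FVB/NJ pag replicate 1 (6445 against 613). For oligodendrocyte markers it was C3H/HeJ pituitary gland replicate 2 (5567 against 699). Arrays high in both replicates were kept, as in A/J hypothalamus (5750 and 5339). Markers of choroid plexus and ependyma were outside this rule. They also differed between replicates, most widely in C3H/HeJ bnst, where replicate 3 had 437 against 8653 and 6485. Further examples were A/J bnst (7109 against 2248), C57BL/6J hippocampus (6694 against 1423) and C3H/HeJ hippocampus (4147 against 1283). The counts of called member probe sets, by F test, region and strain, were also obtained in the 56 arrays without the 5 that met the rule. They are given where they differ by over 1.5 times. Counts by enzyme class, by gene and over marker and pathway lists were not.

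Most of these enzymes differed among the regions, as did most probe sets of the array. The F test over regions called 69 of 87 member probe sets (79.3%), where 71.7% of all probe sets were called, and 39 of the 47 genes by their leading probe set. The 8 genes not called were Gpx2, Gpx5, Gpx6, Gsta2, Gsta3, Gsto2, Gstp3 and Gstt4, all with a mean signal under 50. All 4 genes of glutathione synthesis and reduction, all 4 peroxiredoxin and sulfiredoxin genes, all 5 thioredoxins and reductases, all 4 superoxide dismutases and catalase, and Nqo1 were called, as were 16 of 21 transferases and 5 of 8 peroxidases.

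Set against the mean of the other regions, the hippocampus was mostly lower and the hypothalamus and pag were more often higher. In the hippocampus 55 member probe sets were called, where 48.3% of all probe sets were, 9 of them higher and 46 lower than the mean of the other regions, against 19.1% and 29.3% of all probe sets. The median log2 difference of the 47 leading probe sets there was -0.29, beside -0.07 over all probe sets tested. In the hypothalamus 42 were called (33.9% of all probe sets), 30 higher and 12 lower (17.0% and 17.0% of all). In the pag 41 were called (43.4% of all), 31 higher and 10 lower (22.2% and 21.2% of all). The bnst had 32 called (38.6% of all), 19 higher and 13 lower (16.0% and 22.6% of all), which became 16 higher and 18 lower where linear signals were regressed. The pituitary gland had 62 called (66.0% of all), 36 higher and 26 lower (40.6% and 25.4% of all), 19 of them by over 2-fold. This pituitary split was 26 higher and 31 lower with each array scaled to 1 median. The mean set against a brain region includes the pituitary gland, so a large pituitary difference moves every brain region the other way. Nqo1, for example, was called higher in the pituitary gland and lower in every brain region. The counts here and the differences from that mean below do not by themselves set a brain region apart from the other brain regions.

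**Figure D1:**
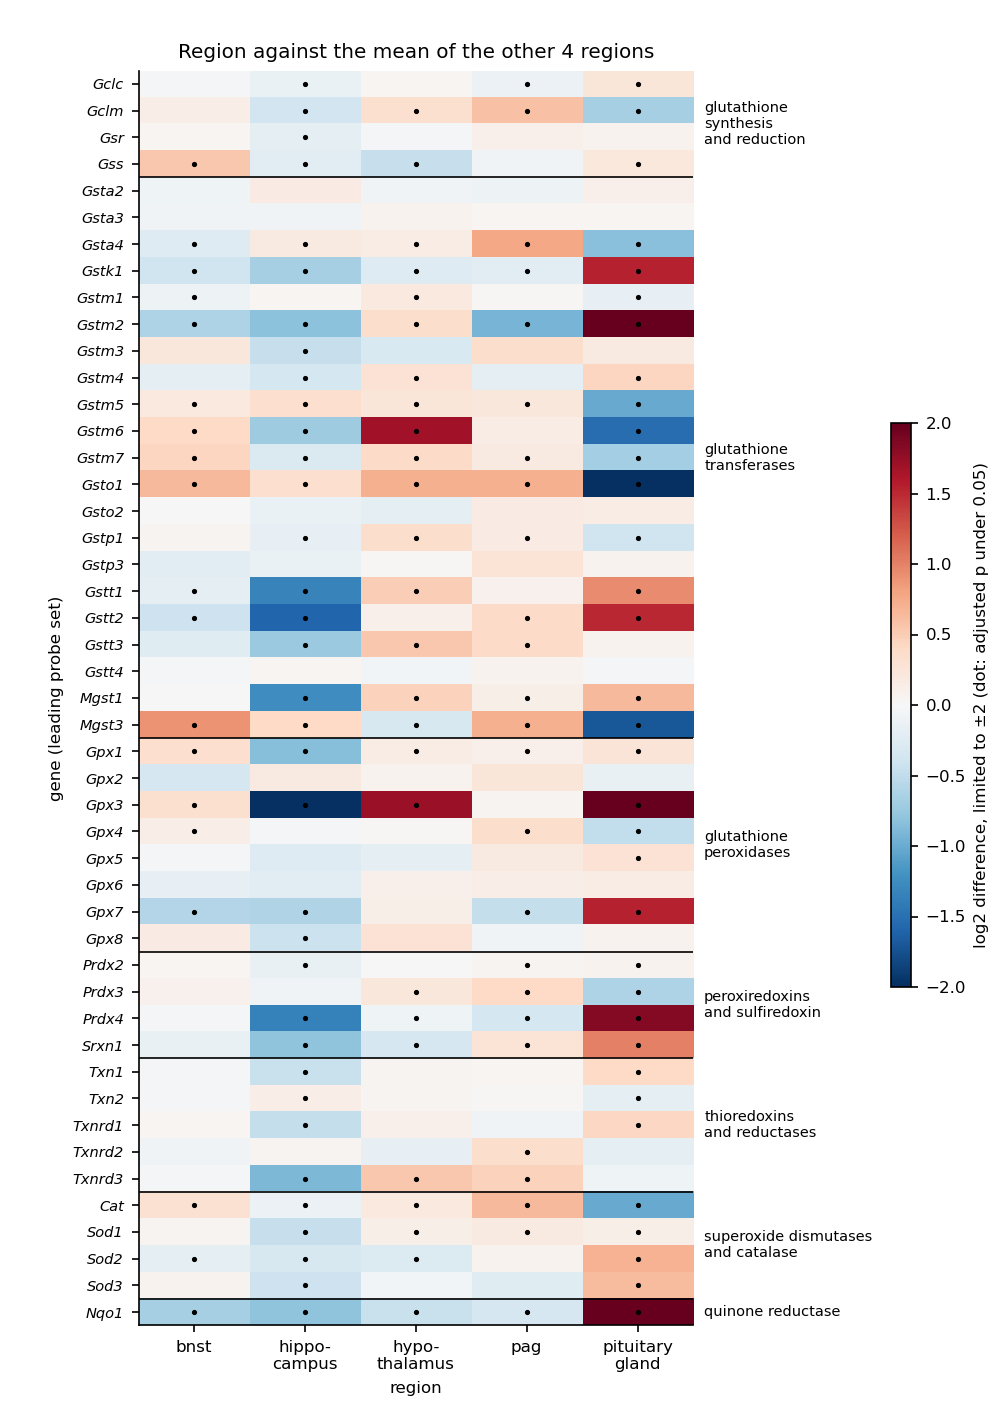
Log2 difference of each region from the mean of the other 4 regions, for the leading probe set of each of the 47 genes, in rows grouped by enzyme class. Colour gives the difference, limited to 2 in either direction, and a dot marks an adjusted p under 0.05; the hippocampus column is mostly lower (5 higher and 30 lower of 47), while the pituitary gland column holds the strongest colours in both directions (21 higher and 13 lower).

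The largest difference was that of Gpx3, the secreted glutathione peroxidase of plasma and extracellular fluid. Its signal was 29.3, 45.1 and 63.1 (lowest, median and highest array) in the hippocampus, 508, 789 and 1216 in the bnst, 458, 714 and 975 in the pag, 1356, 1885 and 2197 in the hypothalamus and 2857, 3423 and 4655 in the pituitary gland. Every hippocampal array lay below, and every pituitary array above, all arrays of the other regions, and the hypothalamic arrays lay above all arrays of the bnst and pag. The hippocampus was at a log2 difference of -4.98 (SE 0.068, adjusted p 2.99e-35) from the mean of the others. On the log2 scale the hypothalamus was 5.36 (SE 0.087) above the hippocampus and 0.94 (SE 0.087, adjusted p 7.25e-12) below the pituitary gland. The bnst and the pag did not differ beyond their spread (0.22, SE 0.086, adjusted p 0.0653). The sign of the bnst against the mean of the others depended on the scale, at 0.32 on log2 signals and -671.1 signal units (adjusted p 3.67e-11) where linear signals were regressed.

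The other peroxidases were less divergent. Gpx1, the abundant cytosolic form, had 431, 500 and 666 in the hippocampus and at least 726 on every other array. The hippocampal arrays thus lay below all others, at a log2 difference of -0.85 (SE 0.036, adjusted p 3.86e-21). Gpx4, which reduces lipid hydroperoxides in membranes, was lower in the pituitary gland (1108, 1290 and 1390; log2 difference -0.49, SE 0.025) with no overlap, and higher in the pag (1814, 2025 and 2354; 0.35, SE 0.025), where the arrays overlapped those of the bnst and hypothalamus. Gpx7, a peroxidase of the endoplasmic reticulum, had 113, 132 and 155 in the pituitary gland and at most 83.2 elsewhere, a log2 difference of 1.53 (SE 0.10, adjusted p 6.61e-16). Gpx8, its relative in the same compartment, was called only in the hippocampus, at -0.43 (SE 0.12, adjusted p 0.00189).

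**Figure D2:**
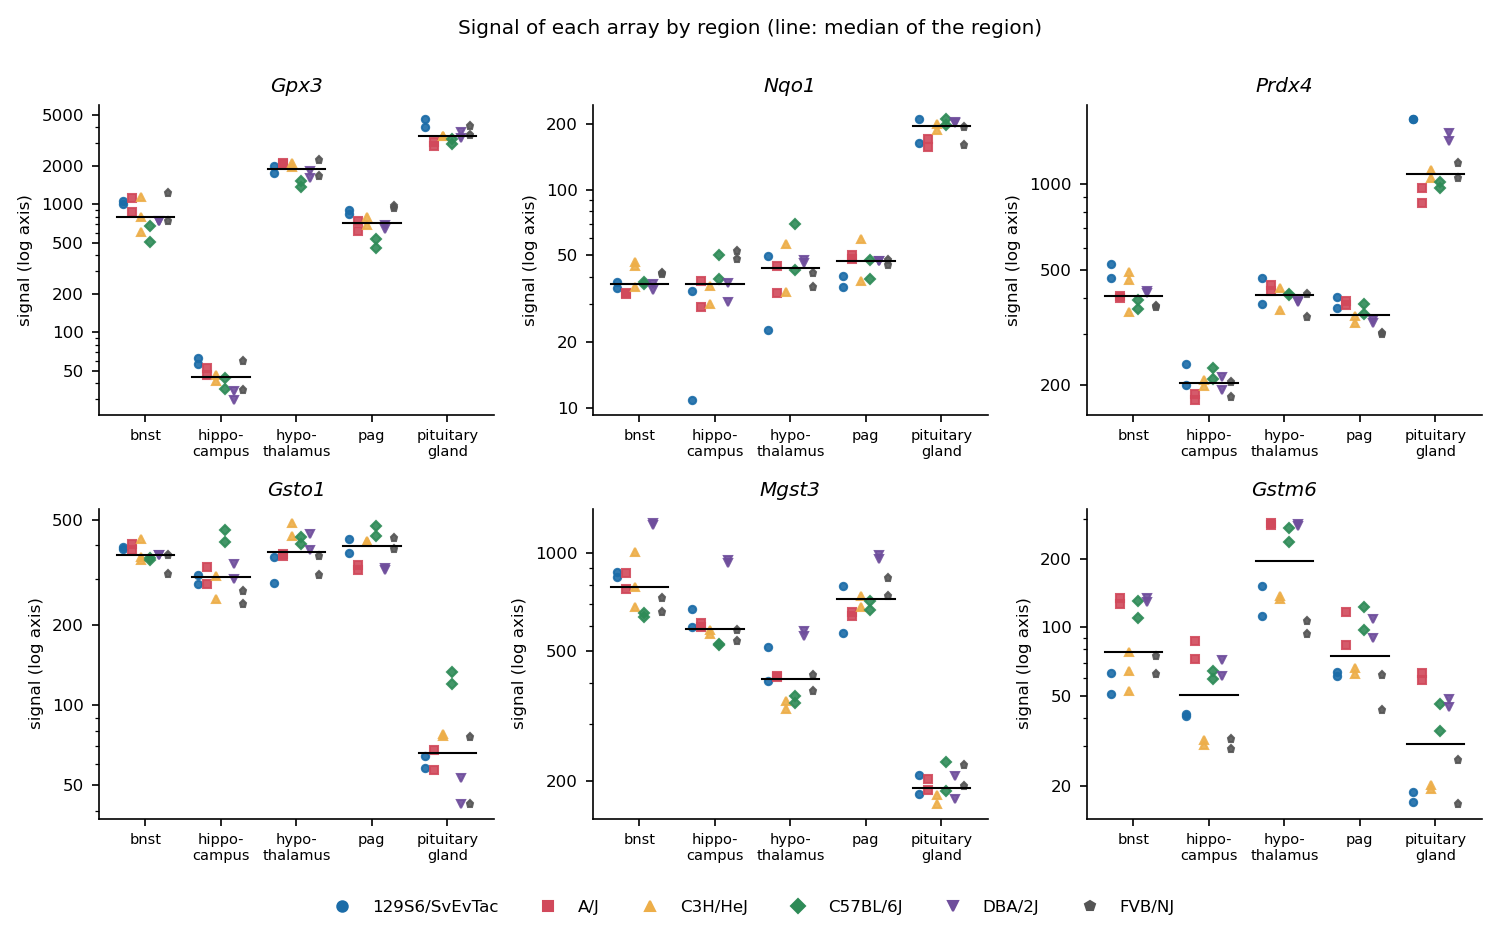
Signal of 6 members on each array by region, on a log axis, with colour and marker giving the strain and a line at the median of the region. Gpx3 was lowest in the hippocampus (median 45.1) and highest in the pituitary gland (3423); Nqo1 and Prdx4 were highest and Gsto1 and Mgst3 lowest in the pituitary gland, and Gstm6 was highest in the hypothalamus (median 196).

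Genes of glutathione synthesis and reduction differed by less than 2-fold by their leading probe sets. Gclm, the modifier subunit of the rate-limiting ligase, had 282, 359 and 460 in the pag and 129, 186 and 235 in the pituitary gland. The arrays of these regions did not overlap, and the log2 differences from the mean of the others were 0.59 (SE 0.060, adjusted p 1.72e-10) in the pag and -0.66 (SE 0.060, adjusted p 3.14e-12) in the pituitary gland. The second probe set of Gclm was further apart in the pituitary gland, with 63.0, 104 and 133 there and at least 205 on every other array, at -1.39 (SE 0.045, adjusted p 2.39e-25), which is 0.381-fold. Gclc, the catalytic subunit of the same enzyme, went the other way in the pituitary gland, at 298, 365 and 487 there (0.24, SE 0.040, adjusted p 1.52e-06). Those arrays overlapped those of every other region. Gss, the enzyme of the final step of synthesis, was higher in the bnst (0.54, SE 0.063) and lower in the hypothalamus (-0.47, SE 0.064). Gsr, which returns oxidised glutathione to its reduced form, was lower in the hippocampus, at -0.18 (SE 0.045, adjusted p 0.000849), and was called in no other region.

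The transferases had the widest range of patterns. Of the 21 genes, 12 were higher and 2 lower in the hypothalamus (17.0% and 17.0% of all probe sets). In the hippocampus 4 were higher and 11 lower (19.1% and 29.3% of all). The pituitary gland had 6 higher and 8 lower (40.6% and 25.4% of all). Gsto1, an omega transferase that also reduces dehydroascorbate, had 42.4, 66.2 and 133 in the pituitary gland and at least 240 on every other array. Its log2 difference was -2.40 there, which is 0.189-fold, and its second probe set also had no overlap. Mgst3, a membrane-bound transferase and peroxidase, had 170, 191 and 229 in the pituitary gland, 333, 412 and 577 in the hypothalamus and 636, 789 and 1238 in the bnst. Again no pituitary array reached another region, with log2 differences of -1.69 in the pituitary gland, 0.90 in the bnst and 0.71 in the pag. Gsta4, which conjugates reactive aldehydes of lipid peroxidation, was at 634, 735 and 819 in the pag (0.77, SE 0.033) and at 204, 320 and 377 in the pituitary gland (-0.83, SE 0.033), without overlap between these 2 regions. Gstp1, the pi transferase, was higher in the hypothalamus (0.35) and lower in the pituitary gland (-0.40).

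Other transferases were higher in the pituitary gland. Gstk1, the kappa form of mitochondria and peroxisomes, had 310, 456 and 591 there and at most 204 elsewhere, 2.91-fold higher with no overlap (log2 difference 1.54, SE 0.054, adjusted p 1.82e-24). Gstt2 and Gstt1, theta transferases, were lowest in the hippocampus and highest in the pituitary gland. Gstt2 had medians of 40.9 and 248, with log2 differences of -1.58 and 1.51, and Gstt1 had medians of 81.4 and 288, with -1.34 and 0.94. The third theta gene, Gstt3, was also lower in the hippocampus (-0.74, SE 0.12) but had a maximum of 44.8 on all arrays. Mgst1, a membrane-bound transferase like Mgst3, had 136, 168 and 269 in the hippocampus and 397, 538 and 656 in the pituitary gland, without overlap between them. Its log2 differences were -1.24 (SE 0.038) and 0.66 (SE 0.038), in the opposite direction to Mgst3 in both regions, and its other probe set gave 0.06 in the hippocampus and was not called.

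The mu transferases lie next to each other on chromosome 3 in the order Gstm5, Gstm7, Gstm6, Gstm3, Gstm2, Gstm1, Gstm4, and did not share a regional pattern. Gstm5 had 737, 843 and 1226 in the pituitary gland and at least 1501 elsewhere, 0.500-fold (adjusted p 6.25e-28). Gstm2 had 131, 156 and 218 in the pituitary gland, above every array of the other regions (2.02, 4.06-fold). Gstm6 had 93.3, 196 and 290 in the hypothalamus and 16.6, 30.5 and 63.2 in the pituitary gland. Those arrays did not overlap, and the log2 differences were 1.68 (SE 0.059) and -1.53, while the bnst and the pag did not differ in Gstm6 beyond their spread (0.20, SE 0.083, adjusted p 0.0794). Gstm7 was also lower in the pituitary gland (-0.68) and higher in the bnst (0.43) and hypothalamus (0.38). Gstm4 was higher in the pituitary gland (0.44, SE 0.084), and Gstm1 was within -0.16 and 0.19 in every region, its pituitary value turning to 0.02 under quantile normalization. Of the windows printed above, those of Gstm5 and Gstm7, both lower in the pituitary gland, held the searched core. Those of Gstm6, also lower, and Gstm2, higher, did not. The Gstm7 window lies within the annotated gene, and the window of the first start listed for Gstm7 did not hold the core. Probe sets of this family may share sequence, and a suffix _s_at or _x_at marks probe sets whose probes match several transcripts or resemble other sequences; of the leading ones this holds for Gstm1 and Gstm3.

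**Figure D3:**
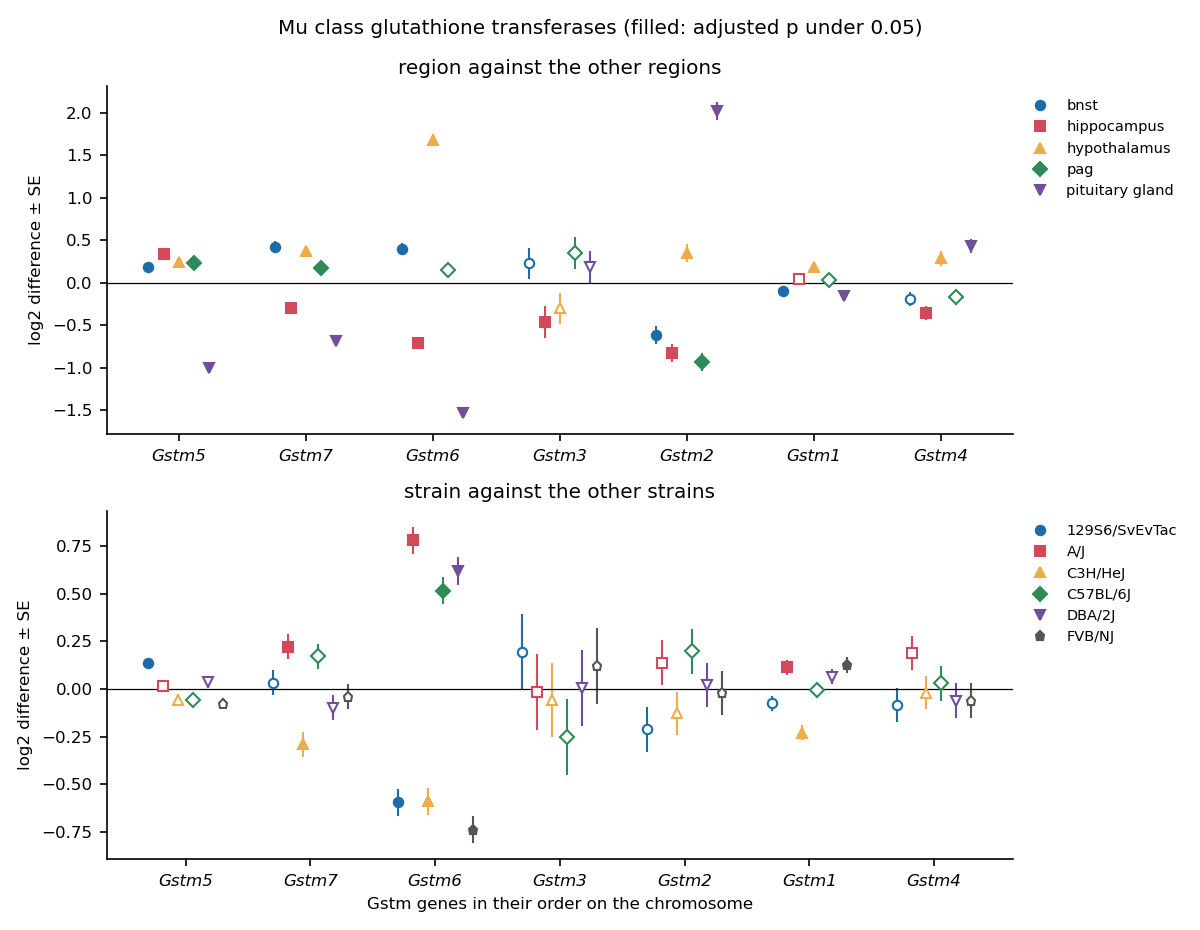
Log2 difference (points, with bars of 1 standard error) of the leading probe sets of the 7 Gstm genes, in their order along chromosome 3, for each region against the other regions and each strain against the other strains; filled points have an adjusted p under 0.05. Gstm2 was 2.02 higher and Gstm5, Gstm6 and Gstm7 were lower in the pituitary gland, and Gstm6 stands apart among the strains.

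The peroxiredoxins differed from each other in the pituitary gland. Prdx4, the form of the endoplasmic reticulum, had 857, 1082 and 1683 in the pituitary gland and 176, 202 and 236 in the hippocampus, with the other 3 regions between them. Neither group overlapped any other region, and the log2 differences were 1.83 (3.56-fold) and -1.35, whereas the bnst and the hypothalamus did not differ (0.04, SE 0.045, adjusted p 0.633). Of the other 3 probe sets of Prdx4, a pair shared both directions, at -1.61 and -1.22 in the hippocampus and 2.09 and 1.93 in the pituitary gland. The last was above the floor on 12 arrays, had a mean signal of 7.50 and was called in neither region. Prdx3, the mitochondrial form, was lower in the pituitary gland (272, 336 and 362; -0.62, SE 0.041) and higher in the pag (0.39). Prdx2, the abundant cytosolic form, was nearly level across regions, with medians from 1543 in the hippocampus to 1756 in the pag and a log2 difference of -0.15 (SE 0.023) in the hippocampus. Srxn1, the sulfiredoxin that restores overoxidised peroxiredoxins, had 265, 325 and 376 in the hippocampus and 508, 907 and 1833 in the pituitary gland. These arrays did not overlap, and the log2 differences were -0.80 and 1.01.

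Among thioredoxins and their reductases, the cytosolic pair shared its directions. Txn1 was lower in the hippocampus (848, 994 and 1132; -0.44, SE 0.033) and higher in the pituitary gland (1266, 1508 and 1846; 0.40, SE 0.033), and the cytosolic reductase Txnrd1 had -0.48 (SE 0.044) and 0.41 (SE 0.044) in the same regions. For both genes the arrays of the hippocampus and the pituitary gland did not overlap. The mitochondrial Txn2 was lower in the pituitary gland by a small margin (-0.19), and Txnrd3, a reductase known from the testis and dim here, was lower in the hippocampus (-0.91, SE 0.13).

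Nqo1, the NADPH and NADH quinone reductase and a classical Nrf2 target, had 158, 196 and 212 in the pituitary gland, against medians of 37.0 to 47.3 and a maximum of 69.4 elsewhere. Its pituitary arrays all lay above the others, 4.72-fold higher (log2 difference 2.24), and of the 6 pairs of the other regions only the hippocampus and the pag differed. Catalase, the peroxisomal enzyme, went the other way, with 105, 179 and 239 in the pituitary gland and 341, 444 and 520 in the pag. The pag arrays lay above all pituitary arrays, and the log2 differences were -1.01 (SE 0.050, adjusted p 1.06e-19) and 0.65 (SE 0.050). Sod2, the mitochondrial dismutase, had 718, 982 and 1189 in the pituitary gland, overlapping only the pag, at a log2 difference of 0.69 (SE 0.036). Of its other 3 probe sets, the brightest was also higher there (0.68, adjusted p 1.78e-18), the dimmest was not called (-0.04) and the remaining one was lower, at -0.41 (adjusted p 4.97e-10). Sod1, the cytosolic dismutase, was lower in the hippocampus (1154, 1233 and 1500; -0.46, SE 0.040), as were 2 of its other 4 probe sets (-0.53 and -0.38). A further one was higher there, at 0.13 (adjusted p 0.0401), and the last, above the floor on 10 arrays, was not called (-0.08). Sod3, the extracellular dismutase, was higher in the pituitary gland (85.4, 113 and 147; 0.64, SE 0.16).

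Markers of cell types set the pituitary gland apart as well, where 40.6% of all probe sets were higher and 25.4% lower. All 10 astrocyte markers were lower there (median log2 difference -3.10), and their summed signal was 2161 to 2737 against 11927 to 16476 in the other regions. All 10 neuronal markers were lower, with sums of 3731 to 5445 against 15571 to 22331, and all 9 oligodendrocyte markers were lower (493 to 5567 against 10605 to 19255), with Olig2 under the floor on average. Of 9 microglial markers 8 were lower, of 10 endothelial markers 7 were higher and 3 lower, and all 9 hormone-cell markers were higher (46730 to 65823). For a brain region, the mean of the other regions includes the pituitary gland, where astrocyte, neuronal, oligodendrocyte and most microglial markers were lower. Higher counts of these markers in a brain region therefore do not set it apart from the other brain regions. Against that mean, astrocyte markers were higher in all 4 brain regions, for 10 of 10 in the hippocampus (median 0.63) and hypothalamus (0.87), 9 of 10 in the pag (0.74) and 8 of 10 in the bnst (0.52). In the pag 8 of 10 neuronal (1.34) and all 9 oligodendrocyte markers (1.44) were higher, and in the hypothalamus 6 of 10 (0.53) and 7 of 9 (0.72). In the hippocampus 8 of 10 neuronal (0.90), 8 of 9 oligodendrocyte (0.56) and all 9 microglial markers (0.63) were higher, and 7 of 10 markers of choroid plexus and ependyma were lower (-1.10), with Otx2 under the floor on average. In the bnst all 10 of the latter were higher (1.35), with sums from 437 to 10649, as were all 10 neuronal (0.83) and all 9 oligodendrocyte markers (1.39). The part of these cell differences in the values of the enzymes was not tested.

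Genes of the surrounding pathways were counted in the same way. Of all probe sets, 40.6% were higher and 25.4% lower in the pituitary gland, and 19.1% and 29.3% in the hippocampus. Of 13 measured thioredoxin-like proteins and thioredoxin regulators, 12 were higher and none lower in the pituitary gland (median log2 difference 0.71), and none was higher and 12 were lower in the hippocampus (-0.59). The largest pituitary differences were those of Txnip, the protein that binds and inhibits thioredoxin (3.16, SE 0.067), and of Txndc5 (1.81) and Pdia6 (1.66), oxidoreductases of the endoplasmic reticulum. Of 25 genes of the Nrf2 pathway outside the members, 14 were higher and 8 lower in the pituitary gland and 4 higher and 14 lower in the hippocampus. Nfe2l2 itself was 1.87 (SE 0.050) higher in the pituitary gland and at -0.77 in the hippocampus, the exporter Abcc4 was 1.28 higher in the pituitary gland, and Slc7a11, the cystine carrier that feeds glutathione synthesis, was at -2.10 (SE 0.096) there and under the floor on average. Of 23 genes of glutathione turnover and repair, 12 were higher and 7 lower in the pituitary gland, with Ptges at 2.42 and Ggct at -1.02, and Msra, which reduces methionine sulfoxide, was 1.28 higher in the hippocampus. Of 17 genes of selenoprotein synthesis and transport, which several Gpx and the Txnrd enzymes need, 9 were higher and 6 lower in the pituitary gland, with Selenos at 1.49 and Lrp8, the receptor of selenoprotein P, at -1.32, and 5 were higher and 11 lower in the hippocampus.

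The F test over strains called 49 of 87 member probe sets (56.3%), where 39.2% of all probe sets were called, and 29 of the 47 genes. All 4 peroxiredoxin and sulfiredoxin genes and all 4 superoxide dismutases and catalase were called, as were 11 of 21 transferases, 5 of 8 peroxidases, 3 of 5 thioredoxins and reductases and 2 of 4 genes of glutathione synthesis and reduction, but not Nqo1. Against the mean of the other strains, C57BL/6J had 11 member probe sets higher and 16 lower (11.7% and 10.4% of all probe sets), 129S6/SvEvTac 11 and 12 (9.93% and 8.80%), A/J 12 and 8 (7.74% and 7.36%), C3H/HeJ 5 and 13 (5.23% and 5.28%), DBA/2J 8 and 4 (6.00% and 7.50%) and FVB/NJ 7 and 8 (5.68% and 5.32%). These strain counts moved with the scaling: with each array scaled to 1 median they were 30 higher and 2 lower in DBA/2J, 6 and 22 in C57BL/6J, 5 and 6 in A/J, 1 and 8 in C3H/HeJ, 6 and 9 in 129S6/SvEvTac and 4 and 5 in FVB/NJ. The C3H/HeJ count was also 1 and 8 in the 56 arrays, and its total of 18 fell to 10 without C3H/HeJ pituitary gland replicate 2, the array with oligodendrocyte markers. The 5 higher calls of C3H/HeJ ranged from 1 to 6 with 1 array left out, and the 11 of 129S6/SvEvTac became 18 without 129S6/SvEvTac hypothalamus replicate 1. FVB/NJ had 8 higher and 5 lower in the 56 arrays.

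The largest strain difference was in 1 of the 2 probe sets of Prdx2. This dimmer probe set, with the suffix _a_at, had 396, 674 and 784 in C57BL/6J and 37.5 to 100 on all arrays of the other strains. No array of another strain reached those of C57BL/6J, whose log2 difference was 3.34 (SE 0.093, adjusted p 1.30e-25). Every pair with C57BL/6J differed by 3.29 to 3.44, and no pair of the other strains did. The leading probe set of Prdx2 was instead lowest in C57BL/6J, at 1212, 1427 and 1559, against medians of 1626 to 1772 in the other strains, with a log2 difference of -0.27 (SE 0.025, adjusted p 1.30e-10). Over the 30 group means the signals of the 2 probe sets correlated at r = -0.72, a description over groups that share strains and regions. That suffix marks probes common to several transcripts of 1 gene, and both probe sets carry it. The probe sequences were not compared with the sequences of the strains, so whether these differences lie in the amount of RNA or in how well probes bind was not tested.

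**Figure D4:**
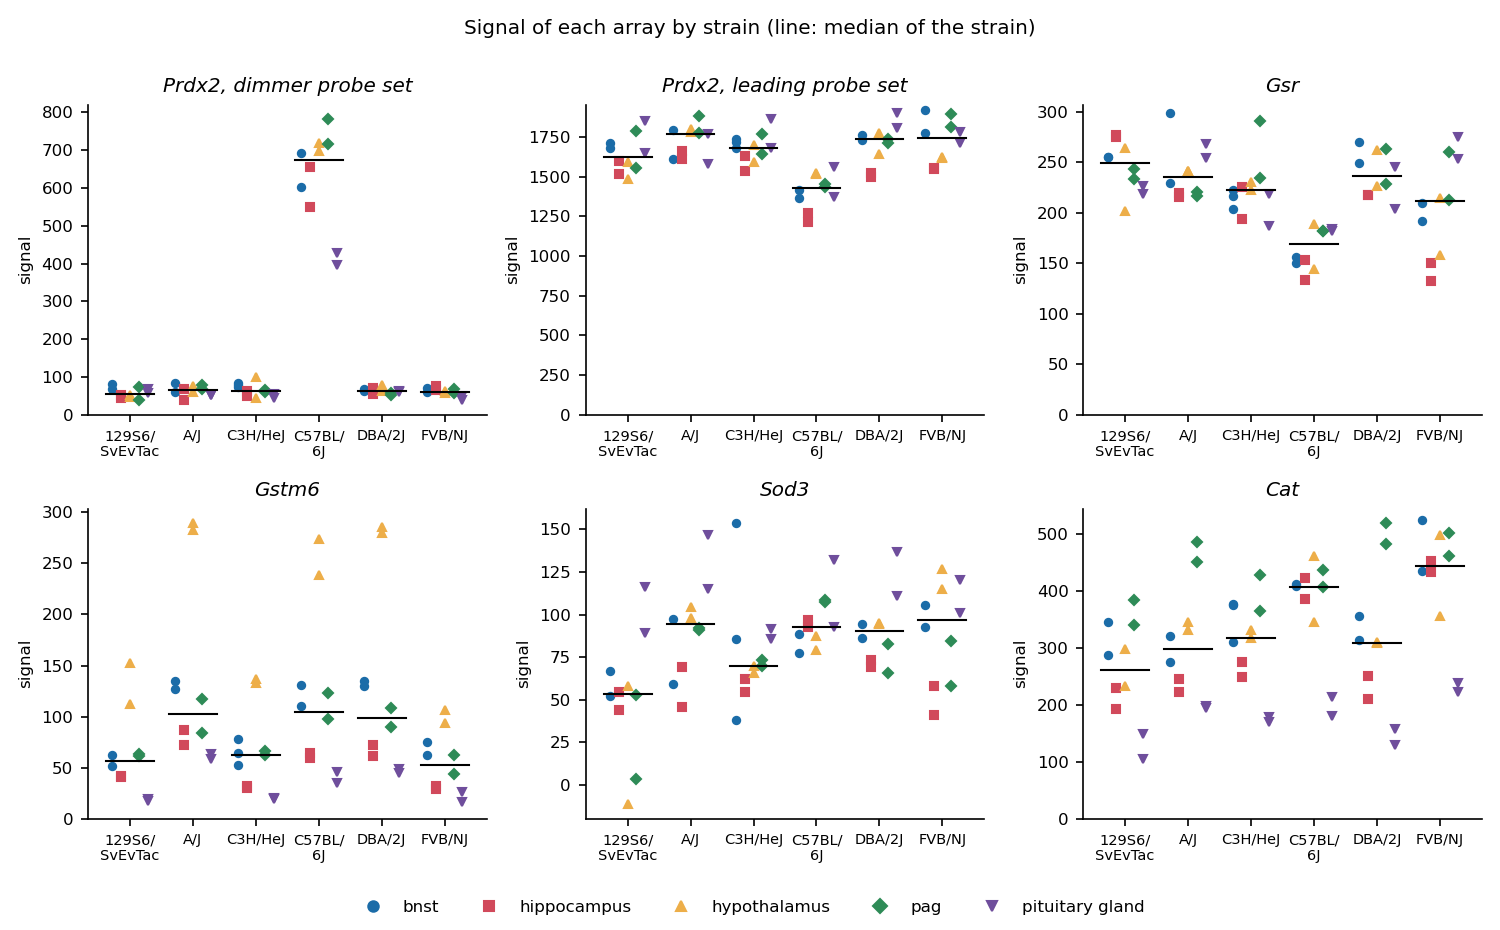
Signal of 6 member probe sets on each array by strain, with colour giving the region and a line at the median of the strain. The dimmer Prdx2 probe set was at 396 to 784 in C57BL/6J and at most 100 in the other strains, the leading Prdx2 probe set and Gsr were lowest in C57BL/6J, and Gstm6 formed a higher set (A/J, C57BL/6J and DBA/2J) and a lower set (129S6/SvEvTac, C3H/HeJ and FVB/NJ).

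Gstm6 split the strains into 2 sets. Its log2 difference was 0.78 in A/J, 0.62 in DBA/2J and 0.52 in C57BL/6J, and -0.74 in FVB/NJ, -0.59 in 129S6/SvEvTac and -0.59 in C3H/HeJ. In each of the 5 regions the lowest array of the higher set lay above the highest array of the lower set, at 110.1 against 78.1 in the bnst, 59.5 against 41.3 in the hippocampus, 238 against 153 in the hypothalamus, 83.6 against 66.5 in the pag and 35.0 against 26.1 in the pituitary gland. All 9 pairs of strains between the sets differed, by 0.92 to 1.26, and none of the 6 pairs within a set did. These sets were formed after the values were seen. The neighbours Gstm7, Gstm1 and Gstm5 did not split this way: Gstm7 was higher in A/J (0.22) and lower in C3H/HeJ (-0.29), and Gstm5 was higher in 129S6/SvEvTac (0.14).

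C57BL/6J was lower for several other members. Gsr had 133, 169 and 189 in C57BL/6J, against medians of 211 to 249 in the other strains. Its arrays overlapped the lowest ones of FVB/NJ and C3H/HeJ, and its log2 difference was -0.47 (SE 0.049, adjusted p 1.69e-09). Gpx3 was at -0.41 (SE 0.074), Gstt2 at -0.39, Gsta4 at -0.29, Sod1 at -0.27 (SE 0.043), Txn1 at -0.23, Gpx4 at -0.18 and Gpx1 at -0.15 in C57BL/6J, each in the same direction in all 5 regions. Prdx3 was instead higher there (0.28, SE 0.044), and Gsto1 was higher by 0.40 (SE 0.055). Of the 10 neuronal markers, 5 were lower and 1 higher in C57BL/6J (median -0.21). Of the 17 genes of selenoprotein synthesis and transport, 7 were lower and none higher. Among all probe sets 10.4% were lower and 11.7% higher there. The part of the marker and selenoprotein genes in the enzyme values was not tested.

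The remaining strains each had a few members of their own. Cat was higher in FVB/NJ (223, 444 and 524; 0.46, SE 0.054) and lower in 129S6/SvEvTac (105, 261 and 384; -0.41, SE 0.054), with overlapping ranges over regions. Mgst1 was higher in FVB/NJ (0.46, SE 0.041) and lower in C3H/HeJ (-0.46, SE 0.040). Mgst3 was higher in DBA/2J (0.47, SE 0.045, adjusted p 3.86e-10), where each pair with another strain differed. Prdx3 was lower in C3H/HeJ (-0.37, SE 0.043), in all 5 regions. In 129S6/SvEvTac, Srxn1 was higher by 0.34, Gpx3 by 0.33 and Prdx4 by 0.26, and Sod3 was at -0.89 (SE 0.17), with 2 of its arrays, at -11.6 and 3.56, under the floor. Of 9 microglial markers 7 were lower and none higher in 129S6/SvEvTac (median -0.35), beside 8.80% and 9.93% of all probe sets. Another 4 calls of these markers were higher and none lower in A/J, beside 7.74% and 7.36% of all. The part of the microglial markers in these values was not tested. In A/J, Gstt2 was higher by 0.30, Gstm7 by 0.22 and Sod1 by 0.17, and Srxn1 was at -0.29. Most other probe sets of Sod1 had the opposite sign in A/J, as listed in the closing section.

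For some members the difference among strains depended on the region. The interaction of strain and region was called for 19 of 87 member probe sets (21.8%), where 11.3% of all probe sets were called, and for 12 of the 47 genes. In the 56 arrays left after the 5 with discordant marker sums were set aside, the count was 12 of 87. The 12 genes were 5 transferases (Mgst1, Gsto1, Gstm5, Gsta4 and Mgst3), Prdx4, Prdx3, Txn2, Txn1, Gsr, Gclc and Cat, and no glutathione peroxidase was among them by its leading probe set.

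For Gsto1, Prdx4, Gstm5, Txn2 and Gsta4, the leading probe sets had a higher ratio of the outermost strain means in the pituitary gland than in any of the other 4 regions. In the pituitary gland, Gsto1 had a mean of 127 ± 8.91 (SD, n = 2) in C57BL/6J and of 47.9 ± 7.52 in DBA/2J, a ratio of 2.65 (adjusted p of strains within the region 1.58e-07). Its strains were also called in the hippocampus (1.70 times, adjusted p 0.0108), and not in the bnst (1.16 times, adjusted p 0.872), hypothalamus or pag. Prdx4 had 1679 ± 4.86 in the pituitary gland of 129S6/SvEvTac and 912 ± 77.7 in that of A/J, 1.84 times (adjusted p 2.36e-07). Its strains were also called in the bnst (1.34 times, adjusted p 0.0401) and not in the other 3 regions. Gstm5 had 1164 ± 87.9 in the pituitary gland of 129S6/SvEvTac and 755 ± 14.8 in that of C57BL/6J (adjusted p 1.53e-06), and its strains were not called in any of the other 4 regions, where the outermost means were 1.14 to 1.23 times apart. Txn2 had 538 ± 9.96 in the pituitary gland of DBA/2J and 306 ± 4.33 in that of FVB/NJ (1.75 times), and the same strains were outermost in the bnst (1.62 times, adjusted p 0.0015). Gsta4 had 352 ± 8.60 in FVB/NJ and 210 ± 7.63 in C57BL/6J in the pituitary gland (1.68 times), and its strains were also called in the hypothalamus (1.54 times, adjusted p 0.000159) and hippocampus (1.47 times, adjusted p 0.000535). The second probe set of Txn2 had its widest ratio in the bnst instead (2.19 times, adjusted p 4.75e-05, against 1.71 in the pituitary gland), with FVB/NJ lowest in both.

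Mgst3, Prdx3 and Mgst1 had their lowest ratio in the pituitary gland. Mgst3 had 1227 ± 15.6 in the bnst of DBA/2J and 646 ± 14.8 in that of C57BL/6J (1.90 times, adjusted p 3.20e-05), and its strains were not called in the pituitary gland (1.19 times, adjusted p 0.609). Prdx3 had 767 ± 22.8 in the pag of C57BL/6J and 451 ± 23.4 in that of C3H/HeJ, against 1.26 times in the pituitary gland (adjusted p 0.167). Mgst1 was highest in FVB/NJ in all 5 regions, at 560 ± 28.1 in the pag against 258 ± 7.94 in C3H/HeJ (2.17 times), and at 1.44 times between the same strains in the pituitary gland. Cat had 443 ± 13.3 in the hippocampus of FVB/NJ and 211 ± 26.7 in that of 129S6/SvEvTac (2.10 times). Its strains were also called in the pituitary gland (1.83 times, adjusted p 0.000238), bnst (1.61) and hypothalamus (1.61), and not in the pag (1.38, adjusted p 0.150). Gsr had its lowest hippocampal mean in FVB/NJ (141 ± 13.0) and its highest in 129S6/SvEvTac (276 ± 1.70), but its lowest mean in the other 4 regions in C57BL/6J. The ratio was 1.95 in the hippocampus and 1.45 in the pituitary gland (adjusted p 0.0169), and the strains were not called in the pag (adjusted p 0.0857). In the 56 arrays the interaction was not called for Mgst3 (adjusted p 0.0711), Cat (0.083) and Gclc (0.067).

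**Figure D5:**
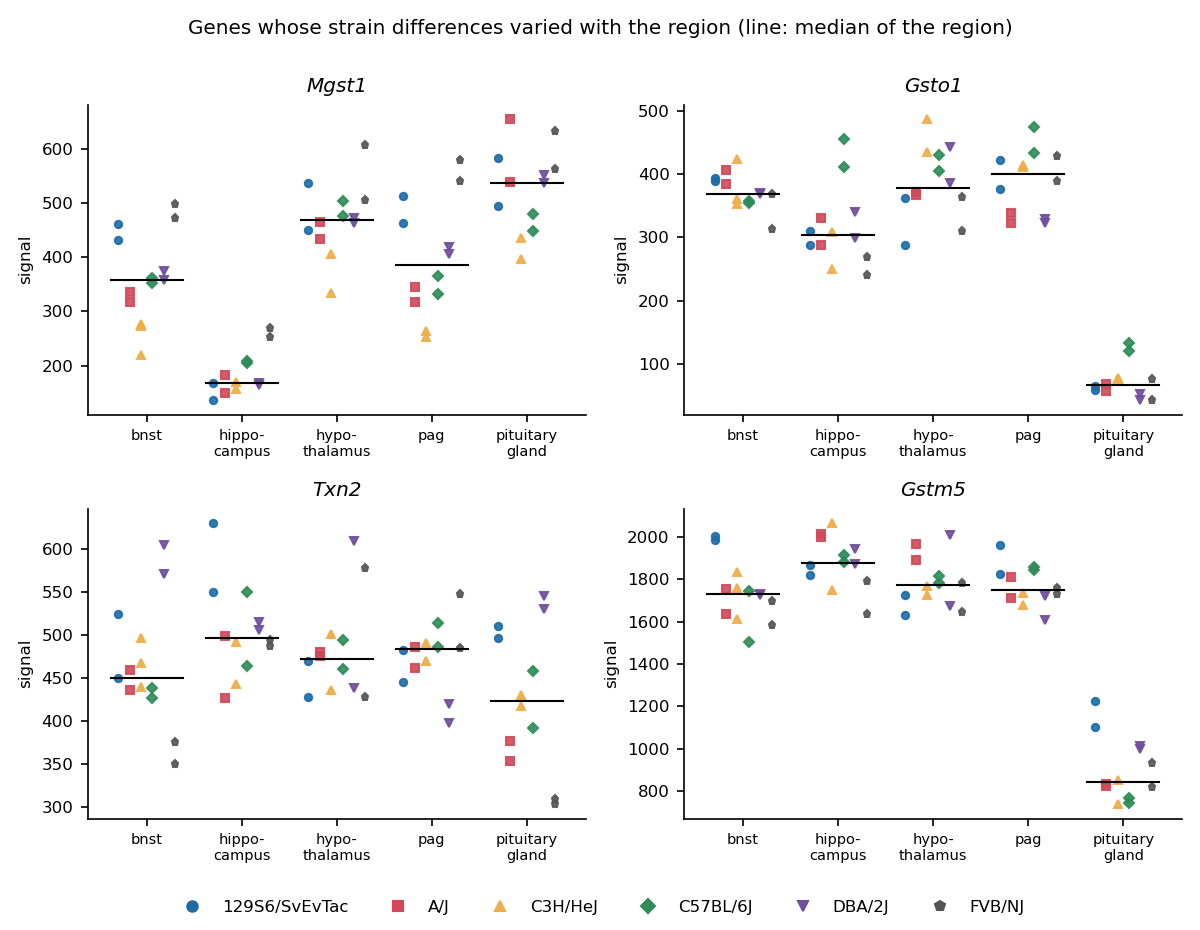
Signal of Mgst1, Gsto1, Txn2 and Gstm5 on each array by region, on linear axes, with colour and marker giving the strain. In the pituitary gland the Gsto1 arrays of C57BL/6J lie above those of the other strains, the Gstm5 arrays of 129S6/SvEvTac lie at the top of the region, and the Txn2 arrays of FVB/NJ lie low, while Mgst1 is highest in FVB/NJ in each region by its mean.

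For 24 genes there was more than 1 probe set, and these did not always share a direction. When each call of a leading probe set was set beside another probe set of the same gene, the other one was called in the same direction in 84, was not called in 64 and had the opposite sign in 43, of which 10 were called. Those 10 lay in Prdx2, Sod2 and Sod1. For a strain other than C57BL/6J, the mean of the other strains includes C57BL/6J, which was far higher in the dimmer Prdx2 probe set. The opposite signs of A/J and FVB/NJ there reflect C57BL/6J, as no pair of the other strains differed. Some dimmer probe sets carried strain differences that their gene's leading probe set lacked or had smaller: a dimmer Txn1 probe set was higher in A/J (1.06, SE 0.29, adjusted p 0.00994), a Gstm1 probe set with the suffix _x_at was lower in 129S6/SvEvTac (-1.16, SE 0.22), a dimmer Txnrd1 probe set was lower in A/J (-0.76, SE 0.12), and the second of Gclc was higher in 129S6/SvEvTac (0.50, SE 0.060) and C57BL/6J (0.39).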

How the data were processed

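Total RNA of 61 samples was hybridised to 1-colour Affymetrix mouse 430 2.0 arrays. The authors made the deposited intensity values in the TeraGenomics system, 1 background-corrected and globally scaled signal per probe set on a linear scale (5.36% below 0); its version and scaling target are not given in the sources used here. Detection calls were not used. Of 45037 probe sets, 34945 named 1 gene, 932 several and 9160 none. Signals under the 20th percentile of all values (12.8) were raised to it and log2 taken; 972 probe sets at that floor on all arrays were not tested, and differences near the floor are understated. limma 3.58.1 (R 4.3.3) fitted a mean for each of 30 groups with eBayes and a trend (31 residual degrees of freedom), with F tests and contrasts averaged over strains or regions, adjusted by Benjamini-Hochberg over 44065 probe sets, and was tested on simulated data. The number of arrays limits the precision, and replicates came from separate mice or pools. The families that define the members, and the gene lists, were chosen with earlier results of these data known. Named were the largest consistent differences per region and strain, all interactions and the brightest members by class. Promoters were matched by gene identifier. Alternatives changed scaling, floor, filter, scale, trend, replicate block and arrays. Python 3.11.15, numpy 2.4.6, pandas 2.3.3 and matplotlib 3.10.9 were used.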

Additional observations from a re-analysis of the deposited data

Results flagged for a closer look

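The strain differences of 19 member probe sets differed among regions by the interaction term of limma, at an adjusted p under 0.05. For the leading probe sets the adjusted p was 0.00157 for Mgst1, 0.00223 for Gsto1, 0.00224 for Txn2, 0.00343 for Gstm5, 0.0035 for Prdx4, 0.00909 for Gsta4, 0.0162 for Prdx3, 0.0174 for Mgst3, 0.0189 for Gsr, 0.0198 for Txn1, 0.0353 for Cat and 0.0404 for Gclc. For further probe sets of the members it was 0.00414 for Txnrd1, 0.0044 for Gsto1, 0.00825 for Gpx4, 0.0167 for Txn2, 0.0171 for Prdx4, 0.0407 for Sod1 and 0.0433 for Srxn1.

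Gsto1 and Prdx4 showed the interaction in 2 probe sets each. For Gsto1 both placed C57BL/6J highest and DBA/2J lowest in the pituitary gland, at 2.65 and 3.39 times. For Prdx4 they did not share an order: the second, dim probe set had its highest pituitary mean in C3H/HeJ (246 ± 37.4, SD, n = 2) and its strains were not called there (adjusted p 0.370). Txn2 also had 2 probe sets, which shared FVB/NJ as the lowest strain in the bnst and pituitary gland but not the highest strain. In the pag, where strains were called in neither, FVB/NJ was highest by the leading probe set (516 ± 44.6, SD, n = 2) and lowest by the other (235.8 ± 15.01).

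The interaction was lost when 1 array was left out for Gsr (adjusted p 0.0559 without FVB/NJ hippocampus replicate 1), Txn1 (0.051 without C57BL/6J bnst replicate 2), Mgst3 (0.085 without DBA/2J pituitary gland replicate 2) and Prdx3 (0.0599 without DBA/2J pag replicate 1 and 0.0576 without FVB/NJ pag replicate 2), and by any of 15 arrays for Cat and of 28 for Gclc. No explanation of these patterns was tested.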

How the results depend on the processing

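Of 210 differences called for leading probe sets, 174 kept their call with each array left out in turn, and so did 6 of the 12 interactions. With each array scaled to 1 median, 162 of the 210 kept their call, 46 lost it and 2 turned sign, and 8 of the 12 interactions were kept. In the 56 arrays 188 of the 210 and 9 of the 12 were kept. The counts of member probe sets called ranged, with 1 array left out, over 66 to 72 for regions, 47 to 55 for strains, 14 to 23 for the interaction, 30 to 34 for the bnst, 51 to 57 for the hippocampus, 39 to 45 for the hypothalamus, 37 to 45 for the pag, 60 to 65 for the pituitary gland, 18 to 30 for 129S6/SvEvTac, 16 to 23 for A/J, 10 to 18 for C3H/HeJ (lowest without C3H/HeJ pituitary gland replicate 2), 24 to 28 for C57BL/6J, 10 to 15 for DBA/2J and 12 to 17 for FVB/NJ. Each array scaled to 1 median gave 15 for 129S6/SvEvTac (23 as reported), 11 for A/J (20), 9 for C3H/HeJ (18), 32 for DBA/2J (12) and 9 for FVB/NJ (15). A mean signal of at least 100, which tests fewer probe sets, gave 43 for regions (69) and 40 for the pituitary gland (62), and splits of 10 higher and 27 lower in the hippocampus and 13 and 7 in 129S6/SvEvTac; linear signals gave 9 and 2 in DBA/2J. The 56 arrays, chosen after the data were seen, gave 12 for the interaction (19) and 9 for C3H/HeJ (18). Replicate numbers showed no common pairing of the arrays (correlation of deviations over 60 pairs -0.255 to 0.406, median 0.00539, over 0.1 in 16). Whether regions of a strain came from the same mice was not tested. With the replicate block the counts were 69 for regions, 49 for strains and 20 for the interaction. Other causes were not tested.

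Signs turned for Gstm2 in the hypothalamus (-1.016 signal units, linear), Gpx3 in the bnst (-671.1, linear), Gstm1 in the pituitary gland (0.02279, quantile), Prdx2 and Sod1 in the pituitary gland (-0.07365 and -0.02698, median scaling) and the second Sod3 probe set in C57BL/6J (-0.05112, higher floor). By another probe set, log2 differences turned for Mgst1 (hippocampus 0.058, hypothalamus -0.18, FVB/NJ -0.010), Prdx4 (hippocampus 0.067, hypothalamus 0.036, 129S6/SvEvTac -0.11 in a pair of probe sets, FVB/NJ 0.12), Gstm1 (A/J -0.20, C3H/HeJ 0.30 and 0.51), Cat (C57BL/6J -0.085), Prdx2 (pituitary gland -0.32, A/J -0.61, C57BL/6J 3.34, FVB/NJ -0.70), Gclm (hippocampus 0.080), Gstm7 (bnst -0.18), Txnrd1 (129S6/SvEvTac 0.11, C57BL/6J 0.075), Gstm3 (hippocampus 0.0083), Txnrd2 (pag -0.16), Mgst3 (hypothalamus 0.054, C3H/HeJ 0.040, C57BL/6J 0.079, DBA/2J -0.40), Sod2 (bnst 0.081 and 0.20, hypothalamus 0.072, pituitary gland -0.043 and -0.41, C57BL/6J 0.25), Sod1 (hippocampus 0.13, hypothalamus -0.12 and -0.0071, pag -0.16 and -0.079, pituitary gland -0.040, A/J -0.054, -0.28 and -0.013, C57BL/6J 0.089) and Srxn1 (pag -0.10). The Prdx2 values of A/J and FVB/NJ reflect C57BL/6J in the mean of the other strains, as no pair of strains without C57BL/6J differed in that probe set.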
